A study of Mus musculus with 2 samples.

Results

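Broad promoter regions are stretches of open chromatin at the start of a protein-coding gene in which the peak caller placed 4 or more summits. They were described here from ATAC-seq of mouse common myeloid progenitors, the bone marrow cells that give rise to red cells, platelets, granulocytes and monocytes. The regions were selected on measured values. Rows of the conservative peak list, each with 1 summit and 1 signal value, were merged where they overlapped, on chromosomes 1 to 19. Promoter regions are those with the strongest summit within 1 kb of a protein-coding start of GENCODE M21. Regions within 1 kb of a pair of starts of different genes that point away from each other were left out. Of 65789 regions, 14309 were promoter regions and 1174 of these lay near such a head-to-head pair, 185 of them with 4 or more rows. Of the other 13135, 1141 had 4 or more rows (8.69%), 5224 had a single row and 6770 had 2 or 3. The single-row promoter regions serve as the contrast.

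The study holds 2 libraries of 1 group: primary cells of C57BL/6J male adult mice aged 5 to 6 weeks, with 50000 cells each, called replicates 1 and 2. A single donor name is given for both, and no label says that separate animals were used, so the spread between them may be technical. For replicate 1, 2 sequencing instruments are named, and for replicate 2 none. The conservative list was made from both libraries, so each library's own list is not independent of it. Of 7 common myeloid progenitor markers on these chromosomes, 6 had a promoter region (Kit, Cd34, Runx1, Spi1, Cebpa and Mpo, not Gata2). Of 6 genes listed as markers of other cells 1 had one (Pecam1). The lists hold no read counts, so the depth of each library is unknown.

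ATAC-seq uses a transposase that cuts and tags DNA where it is not wrapped in nucleosomes or otherwise covered. An active promoter usually has a nucleosome-depleted stretch just upstream of the start, bound by transcription factors and the transcription machinery, with positioned nucleosomes on either side. Many promoters of widely expressed genes lie in CpG islands, stretches rich in G, C and the CpG dinucleotide, where transcription can begin at several places. A peak caller that looks for summits inside an enriched stretch can split a long one into several rows.

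Summits of 5 of these regions show what a row stands on. The windows below are the mouse GRCm38.p6 (mm10) reference, written 5′ to 3′ on the strand of the gene, and lie outside all annotated exons. Capitals mark a match to a motif of the search described further on. Each line gives the gene, the distance of the summit from the start and the position. Srsf5 and Srsf6 encode SR proteins, which regulate splicing, and are shown because splicing genes had several members. The strongest summit of Srsf5 is cut to the 70 bases without an exon and holds the ETS letters, and that of Srsf6 holds the NFY letters.
Srsf5 at −29 bp, chr12:80945425-80945494, plus strand: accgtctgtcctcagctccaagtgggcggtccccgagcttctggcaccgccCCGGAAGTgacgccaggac
Srsf5 at 339 bp, chr12:80945813-80945873, plus strand: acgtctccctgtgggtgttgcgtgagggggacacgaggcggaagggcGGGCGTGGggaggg
Srsf5 at 708 bp, chr12:80946182-80946242, plus strand: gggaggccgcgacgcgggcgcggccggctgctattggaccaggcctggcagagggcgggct
Srsf6 at −977 bp, chr2:162930521-162930581, plus strand: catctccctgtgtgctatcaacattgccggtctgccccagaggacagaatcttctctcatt
Srsf6 at −814 bp, chr2:162930684-162930744, plus strand: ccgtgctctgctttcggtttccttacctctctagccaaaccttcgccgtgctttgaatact
Srsf6 at −556 bp, chr2:162930942-162931002, plus strand: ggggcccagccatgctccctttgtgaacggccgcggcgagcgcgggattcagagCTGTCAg
Srsf6 at −346 bp, chr2:162931152-162931212, plus strand: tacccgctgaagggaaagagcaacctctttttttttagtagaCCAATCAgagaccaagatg
Srsf6 at −147 bp, chr2:162931351-162931411, plus strand: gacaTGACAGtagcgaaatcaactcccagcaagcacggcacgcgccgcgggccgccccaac

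Cnksr3, a scaffold protein of Ras signalling, had 7 rows, and 6 of its summits are shown because they span the change in base composition along a broad region. The strongest, 60 bp upstream of the start, holds the SP and MYC E-box letters. The 3 upstream of it hold 37.7 to 47.5% G and C, against 63.9% at the strongest.
Cnksr3 at −837 bp, chr10:7213044-7213104, minus strand: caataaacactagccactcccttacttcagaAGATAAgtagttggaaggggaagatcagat
Cnksr3 at −573 bp, chr10:7212780-7212840, minus strand: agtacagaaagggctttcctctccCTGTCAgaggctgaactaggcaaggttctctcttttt
Cnksr3 at −415 bp, chr10:7212622-7212682, minus strand: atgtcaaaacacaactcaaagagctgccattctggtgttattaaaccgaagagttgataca
Cnksr3 at −60 bp, chr10:7212267-7212327, minus strand: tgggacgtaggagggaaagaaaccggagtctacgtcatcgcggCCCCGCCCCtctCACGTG
Cnksr3 at 703 bp, chr10:7211504-7211564, minus strand: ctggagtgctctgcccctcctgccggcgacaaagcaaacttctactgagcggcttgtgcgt
Cnksr3 at 963 bp, chr10:7211244-7211304, minus strand: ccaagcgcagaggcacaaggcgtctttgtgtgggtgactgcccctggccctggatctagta

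Cebpa encodes the transcription factor C/EBPα, which directs progenitors towards granulocytes, and Kctd12 encodes an auxiliary subunit of GABA-B receptors. Cebpa is shown as the member among granulocyte-monocyte genes, and Kctd12 because its weaker summit upstream holds the letters of both PU.1 and RUNX, 2 blood cell factors. The stronger summit of each comes last.
Cebpa at −709 bp, chr7:35118554-35118614, plus strand: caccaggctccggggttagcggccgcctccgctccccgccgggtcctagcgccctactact
Cebpa at −125 bp, chr7:35119138-35119198, plus strand: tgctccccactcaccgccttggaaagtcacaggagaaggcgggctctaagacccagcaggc
Kctd12 at −743 bp, chr14:102983350-102983410, minus strand: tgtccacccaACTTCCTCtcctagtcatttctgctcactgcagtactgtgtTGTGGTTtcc
Kctd12 at −293 bp, chr14:102982900-102982960, minus strand: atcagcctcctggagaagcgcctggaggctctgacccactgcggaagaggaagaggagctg

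Broad regions were wide, and those with the most rows were not the strongest. Rows and signal chose or accompany the choice of members, so these values are given without a test. Of the 1141, 866 had 4 rows, 211 had 5, 49 had 6, 14 had 7 and 1 had 8, 4919 rows in all. The rows of each region carried 1 shared interval and differed in summit and signal. Width ran from 730 to 3455 bp with a median of 1317 bp, against 150 to 1365 bp with a median of 476 bp in single-row regions, a ratio of 2.77. Of single-row regions, 85.7% were narrower than the narrowest broad region, and 655 broad regions were no wider than the widest single-row one. Broad regions held 13.6% of the bases covered by promoter regions. Just outside the threshold, the 2365 regions of 3 rows had a median width of 1033 bp, and just inside it those of 4 rows had 1259 bp.

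The signal of the strongest row had a median of 9.56 in broad regions (quartiles 7.47 and 11.7) and 7.80 in single-row regions (5.54 and 11.2), a ratio of 1.23. It went up from 1 to 3 rows and down with each further row. Medians were 7.80 at 1 row, 9.84 at 2, 10.4 at 3, 9.69 at 4, 9.35 at 5, 8.43 at 6 and 7.86 at 7, and the region with 8 rows had 5.21. Across the broad regions, width and strongest signal had a Spearman rho of −0.0972, against 0.631 across single-row regions. These describe regions of 1 list, which are not independent replicates. Among the regions with a row in the own list of replicate 1, the median own signal was 9.12 in 1057 broad and 8.60 in 3839 single-row regions, a ratio of 1.06. In replicate 2 it was 9.71 in 995 and 9.64 in 3183, a ratio of 1.01. Over these same regions the ratio in the conservative list was 1.05 and 0.986, so the values near 1 go with the set of regions. The single-row regions without a row in those lists, 1385 in replicate 1 and 2041 in replicate 2, had median conservative signals of 4.95 and 5.33.

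**Figure D1:**
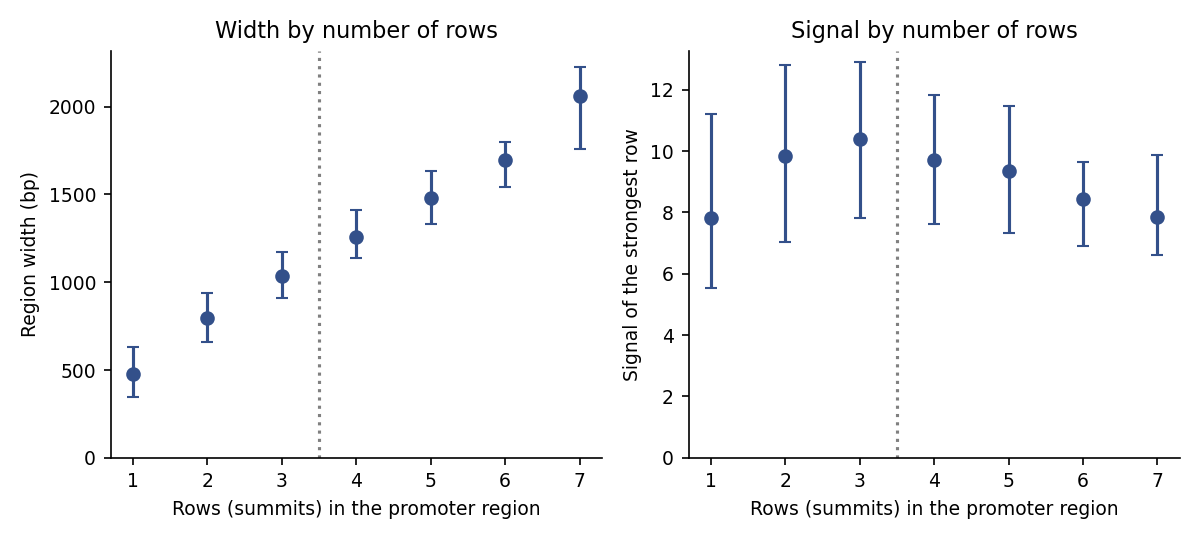
Median width in bp (left) and median signal of the strongest row (right, scale not stated) of promoter regions by number of rows, with quartiles as bars; 1 region with 8 rows is not drawn. Width goes up at each step from 476 bp at 1 row to 2062 bp at 7 rows, while signal is highest at 3 rows; the dotted line is the limit for a broad region.

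The rows of a region were uneven, mostly through the weaker ones. The second row had a median of 66.4% of the strongest row's signal (quartiles 46.35 and 84.9%), the third 43.4% and the fourth 29.8%. The weakest row had less than 50% of the strongest in 1028 of 1141 regions (90.1%). Of all 4919 rows, 2014 (40.9%) lay below 3.73, the signal that 95% of single-row regions exceed. Of the 13135 promoter regions, 99.8% had the same number of rows in the replicated list, another list deposited for both libraries. No broad region had more rows there, and 0 of 5224 single-row regions had 2 or more, which allows a share of up to 0.0735% (Wilson, counting error only). Both lists come from the same 2 libraries, so this agreement gives the row counts no separate support.

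Within each library fewer rows were called. In the own list of replicate 1, 620 of the 1141 regions had 4 or more rows (54.3%, exact 95% interval 51.4 to 57.3), against a background of 5.71% of all 13135 promoter regions. In that of replicate 2, 403 did (35.3%, 32.5 to 38.2), against 3.98%. Each background includes the members. Of the 6770 regions of 2 or 3 rows, 130 (1.92%) had 4 or more in replicate 1 and 120 (1.77%) in replicate 2. The members were chosen by rows of a list made from both libraries, so their excess was set in advance and is no support. Both libraries had 4 or more rows in 304 regions, replicate 1 alone in 316, replicate 2 alone in 99 and neither in 422. In the pseudoreplicated lists the shares were 63.5% and 47.5%. No single-row region reached 4 rows in any of these lists, which allows up to 0.0706% for each. In the own lists, 92.6% of broad regions had at least 1 row in replicate 1 and 87.2% in replicate 2. Of single-row regions, 73.5% and 60.9% did. The pseudoreplicated lists had at least 1 row in 100% and 99.8% of broad and in 97.8% and 95.4% of single-row regions. The 84 broad regions with no row in the own list of replicate 1 had a median conservative signal of 5.58, and those with one 9.81.

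The strongest summit was found in each library more often than the weaker ones. Of the strongest summits of broad regions, 92.0% had a summit of replicate 1 within 50 bp and 85.9% one of replicate 2. Of the 3778 weaker summits, 69.4% and 53.4% did. The strongest summits of the libraries lay within 100 bp of each other in 870 of 979 broad regions with a row in both lists (88.9%) and in 3014 of 3034 single-row regions (99.3%). A broad region offers several summits to choose from and a single-row region mostly 1. Strongest signals of the libraries had a Spearman rho of 0.903 across the 979 broad and 0.934 across the 3034 single-row regions.

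**Figure D2:**
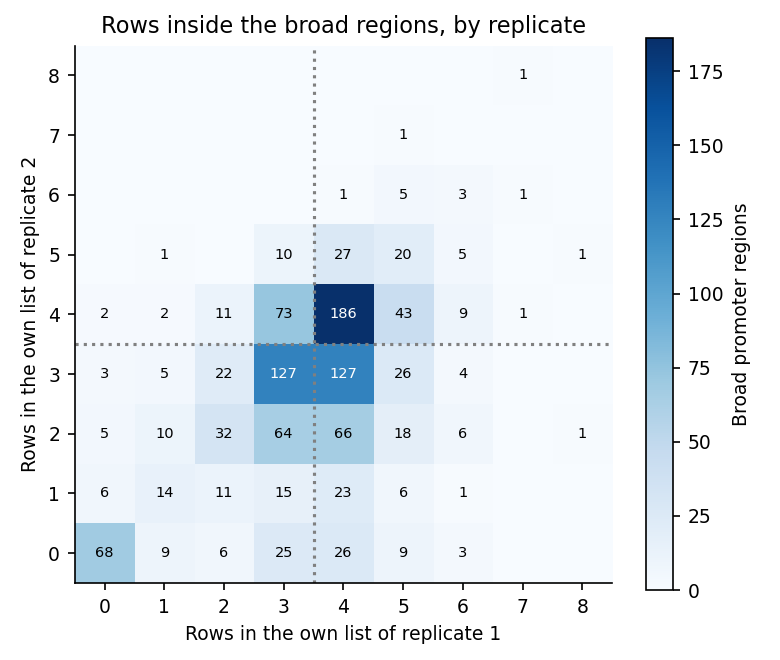
Number of rows inside each of the 1141 broad regions in the own list of replicate 1 (horizontal axis) and of replicate 2 (vertical axis); each cell prints its number of regions, and dotted lines mark the limit of 4 rows. The fullest cell has 4 rows in both, 68 regions have none in either, and more regions lie to the right of the limit than above it.

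The regions straddled the start, with the strongest summit at or just upstream of it and the weaker ones spread further downstream. The strongest summit lay within 100 bp of the start in 60.5% of broad regions (Wilson 95% interval 57.6 to 63.3) and 47.97% of single-row regions (46.6 to 49.3). It lay downstream in 28.0% of broad (25.4 to 30.6) and 34.1% of single-row regions (32.8 to 35.4). In the own list of replicate 2 alone the differences were smaller, with 3.58 points (−1.04 to 8.03) for summits within 100 bp, against 12.5, and −0.884 points (−4.88 to 3.43) for downstream ones, against −6.10. In that of replicate 1 alone they were 4.63 and −5.80 points. With the start within 500 bp of the summit they were 4.74 points (1.45 to 7.92) and −2.06 points (−4.96 to 0.991). Of weaker summits, 60.2% lay downstream and 6.35% were within 100 bp of the start. From 100 to 200 bp downstream lay 2.89%, and in the next 100 bp 10.7%. On the upstream side weaker summits were most frequent from 400 to 300 bp before the start, with 7.28%. The start is the one nearest the strongest summit, and most adjacent summits lay well apart (5th percentile of the spacing 174 bp, lowest 52 bp). The low share of weaker summits close to the start is therefore in part fixed by that choice, and nothing is read from it. Summits of a region share their source, so the intervals cover counting error only. Those of the differences are not widened for the number of comparisons.

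Summits lay on both sides of the start in 999 of 1141 regions (87.6%), all downstream in 74 and all upstream in 66. The region reached further downstream than upstream in 65.4% of broad (62.6 to 68.1) and 41.9% of single-row regions (40.5 to 43.2). Its median reach was 749 bp downstream and 558 bp upstream. The strongest summit was neither the first nor the last in 70.5% of regions, and 53.6% of all summit positions are of that kind. The next summit lay a median of 318.5 bp away on the downstream and 299 bp on the upstream side of the strongest. All adjacent summits had a median spacing of 285 bp (quartiles 236 and 359), and 62.1% of the 3778 gaps measured at least 200 and less than 350 bp. In 617 regions of 4 or more rows away from starts the median spacing was 270.5 bp. The smallest gap was 52 bp in broad regions and 8 bp in those 617. Whether the peak caller set a least distance between summits is not given in the sources used here.

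**Figure D3:**
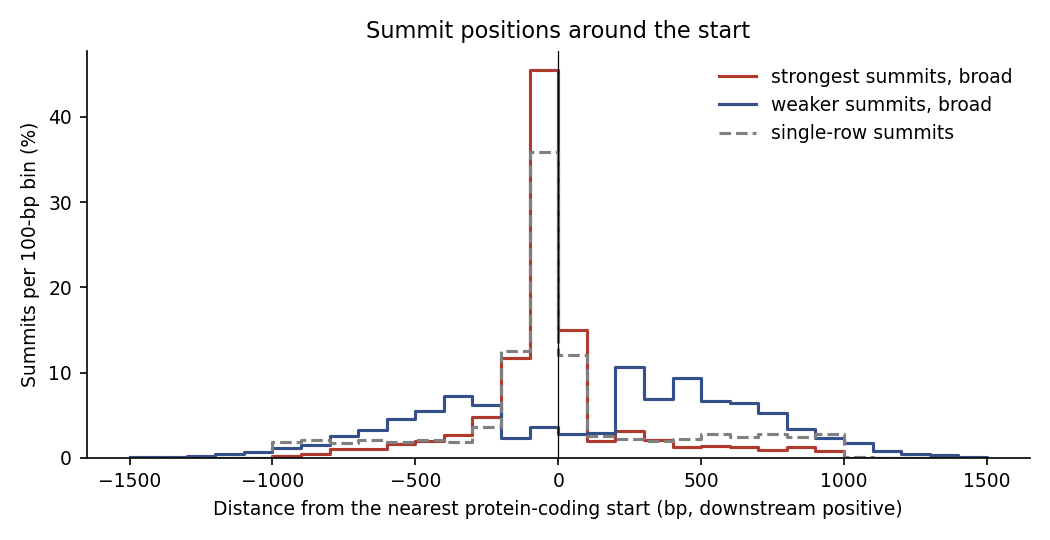
Share of summits per 100-bp bin (vertical axis, %) by distance from the start nearest the strongest summit (horizontal axis, bp, downstream positive), for strongest and weaker summits of the 1141 broad regions and for the 5224 single-row summits. Strongest summits gather in the 100 bp before the start (45.5%), and weaker summits are most frequent from 200 to 300 bp downstream (10.7%); the gap of weaker summits at the start is in part fixed by the choice of start and the spacing of summits.

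Broad promoters were richer in CpG. A window of 501 bp around the strongest summit counted as CpG-rich with at least 50% G and C and at least 0.6 of the CpG number expected from its bases. This held for 889 of 1141 broad regions (77.9%) and 2688 of 5224 single-row regions (51.5%), a difference of 26.5 percentage points. The interval from 22.6 to 30.0, a Newcombe score interval at 95% over the 6 features together, leaves out 0. It treats regions as units, covers counting error only and is no test across animals. The share was 68.2% at 2 rows, 74.5% at 3, 78.8% at 4 and 75.3% at 5 or more. With only summits within 100 bp of the start on both sides of the comparison, a restriction chosen after seeing the data, the difference was 21.6 points (16.9 to 25.7). In the own list of replicate 2 alone it was 11.8 points (6.07 to 16.9). The run of CpG-rich sequence around the strongest summit had a median of 700 bp in broad and 300 bp in single-row regions. The region was wider than that run in 91.5% of broad and 63.0% of single-row regions.

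Start sites and genes differed less. Of the 5 features of the annotation, 3 had intervals that leave out 0. At least 3 protein-coding starts lay within 1 kb of the strongest summit in 31.8% of broad and 22.5% of single-row regions, a difference of 9.28 points (5.44 to 13.3). The share was 26.6% at 2 rows, 31.7% at 3, 32.2% at 4 and 30.55% at 5 or more, so regions of 3 rows were close to broad ones. A noncoding gene began on the opposite strand within 1 kb in 15.4% and 8.63%, a difference of 6.79 points (3.97 to 9.97). Here the share was 9.97% at 2 rows, 11.9% at 3, 16.5% at 4 and 12% at 5 or more. The gene measured at least 50 kb in 37.2% and 32.5%, a difference of 4.66 points (0.584 to 8.85). The last interval included 0 with the own list of replicate 2 alone (2.17 points, −3.49 to 8.26), with 3 or more rows (2.41, −0.308 to 5.14) and in 4 other settings. For starts of 2 or more genes within 1 kb the difference was 0.312 points (−0.688 to 1.79). For genes with 3 or more distal regions within 100 kb it was −1.50 points (−5.75 to 2.80), with 44.4% and 45.9%. Distal regions are open regions away from starts, counted for the gene with the nearest start.

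Motif letters were searched on both strands in the 50 bp on each side of the strongest summit. In a broad region this is the strongest of 4 or more summits, and in a single-row region the only one. The effect of that choice was not tested. Intervals treat regions as units and cover counting error only. Of 24 motifs, 7 were more frequent in broad than in single-row windows and 2 were less frequent, by intervals at 95% over the 24 together. These numbers were 2 and 3 in the own list of replicate 1 alone and 0 and 0 in that of replicate 2. They were 1 and 0 at 5 or more rows and 3 and 0 with the start within 500 bp. The SP letters (GGGGCGGGG, bound by SP factors) were in 9.90% of broad and 6.91% of single-row windows, and in 8.32% of all 14309 promoter regions. The ETS letters (CCGGAAGT) were in 5.00% and 2.26%, with 3.82% of all promoter regions. This difference of 2.74 points had an interval from 0.943 to 5.18. In the own lists it was 1.88 points (−0.126 to 4.90) in replicate 1 and 1.89 (−0.589 to 5.96) in replicate 2, and at 5 or more rows 1.38 (−0.943 to 6.70), each interval including 0. The KLF letters (CCACACCC or CCACGCCC) were in 8.15% and 5.70%, with 6.56% of all, and the interval of their difference (0.0337 to 5.44) left out 0 in only 4 of 15 alternatives. The CRE letters (TGACGTCA, bound by CREB and ATF factors) were in 2.54% and 1.13%, with 1.80% of all. The ZBTB33 letters (TCTCGCGA) were in 1.75% and 0.517%, with 1.01% of all. The NRF1 letters (CGCATGCG) were in 1.93% and 0.708%, with 1.21% of all. The EGR letters (GCGTGGGCG) were in 1.23% and 0.345%, with 0.510% of all. The E-box letters of MYC (CACGTG) were in 5.43% and 3.87%, with 4.41% of all, and the interval of their difference reached from −0.380 to 4.13 points. No motif spelled out lies within another, though neighbouring matches can share bases.

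The 2 less frequent motifs were those of CTCF, the insulator protein, and RUNX, a family of blood cell factors. CTCF matches were in 0.614% of broad and 2.20% of single-row windows, with 1.43% of all promoter regions. The RUNX letters (TGTGGTT) were in 1.05% and 3.37%, with 2.23% of all. The MEIS letters (TGACAG) had the largest negative difference, −2.59 points, with an interval from −4.68 to 0.063. That interval left out 0 in 8 of 15 alternatives and included it in 7, among them the own list of each library. Those of C/EBP (TTGCNNAA) differed by −1.71 points (−3.11 to 0.268) and of PU.1 (GAGGAAGT) by −1.35 points (−2.54 to 0.431). The median G and C content of the windows was 66.3% in broad and 61.4% in single-row regions. Standardised to deciles of that content, ETS kept a difference of 2.47 points (0.345 to 4.59) and CTCF one of −1.18 points (−2.09 to −0.272). The intervals of the other 7 then included 0, with SP at 0.205 points and RUNX at −1.07 points. These intervals use a normal approximation and not the score method, so inclusion of 0 is not comparable with the calls above. The differences of CRE, ZBTB33, NRF1 and EGR changed little, to 1.25, 1.09, 1.07 and 0.801 points from 1.41, 1.24, 1.22 and 0.882. That of KLF went to 1.41 from 2.45 points. With only summits within 100 bp of the start, chosen after seeing the data, ETS differed by 2.97 points (0.164 to 6.71) and CTCF by −0.323 points (−1.15 to 1.41). A match describes letters and shows no binding.

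The other motifs had intervals that include 0. In all 14309 promoter regions, matches were found in 2.59% for PU.1, 3.07% for C/EBP and 7.10% for MEIS. The NFY letters, the CCAAT box as CCAATCA and with its last but 1 base as G, were in 9.14%. Those of GATA factors were AGATAA, in 2.31% of the regions. For AP-1 the search used TGANTCA and found 2.11%. The TATA box was sought as TATAAA and found in 1.48%. The rarer ones were YY1 (AAGATGGCG) with 0.727%, E2F (TTTNGCGC) with 0.636%, IRF (GAAANTGAA) with 0.468%, STAT (TTCCNGGAA) with 0.377% and ZNF143 (ACTACAATT) with 0.307%. NF-kB, with 1.62%, and SRF, with 0.377%, were searched by consensuses with mixed bases, as was CTCF. GATA letters were in 1.67% of broad and 2.91% of single-row windows, a difference of −1.24 points (−2.40 to 0.501).

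**Figure D4:**
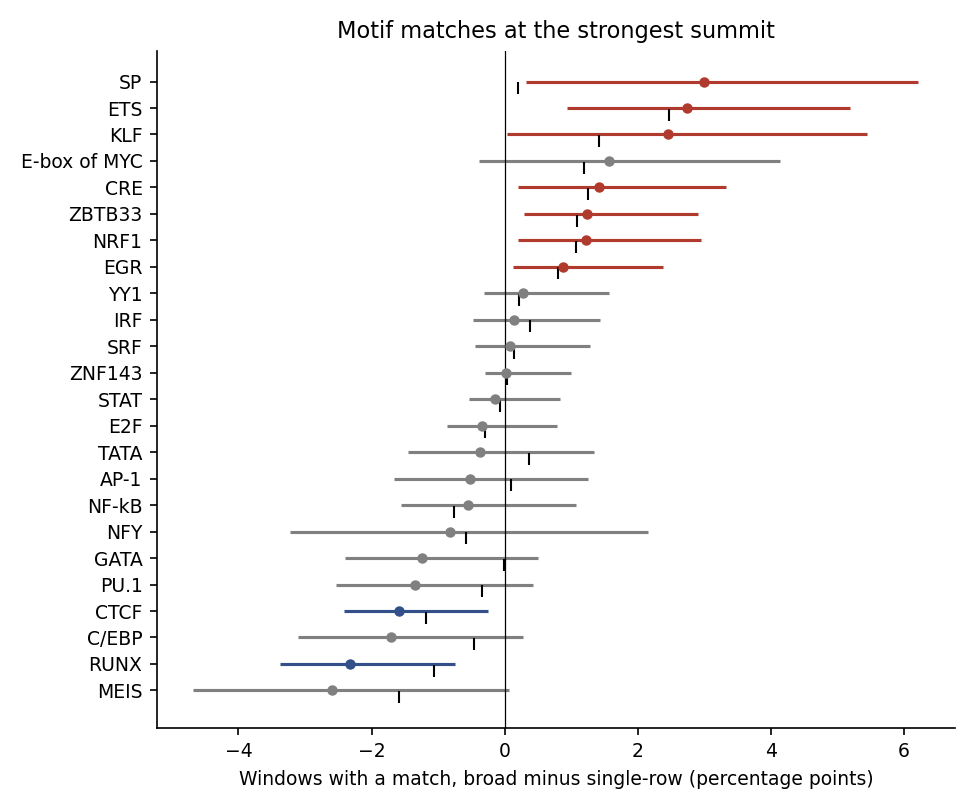
Difference in the share of windows (50 bp on each side) with a match, broad minus single-row strongest summits, in percentage points (horizontal axis), for 24 motifs; points are differences, bars the simultaneous 95% intervals and black ticks the values standardised to deciles of G and C content. The 7 motifs in red have intervals above 0 and the 2 in blue below it; the tick of SP sits near 0 while that of ETS stays close to its point.

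Weaker summits of the same regions held these letters at other shares. ETS letters were in 0.926% of the 3778 weaker windows against 5.00% of the strongest, and SP letters in 3.89% against 9.90%. The NFY letters, bound by a factor of proximal promoters, were in 2.09% against 7.45%, with 8.27% of single-row windows. C/EBP letters were in 3.68% of weaker and 2.37% of strongest windows, RUNX letters in 1.77% and 1.05%, and MEIS letters in 6.41% and 5.26%. Weaker windows held a median of 60.4% G and C. These shares were not tested, since weaker summits of 1 region share their source and the split into strongest and weaker is by signal.

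The widest and most divided regions were not the strongest. Ranked by rows, the first 10 were those of Tagln2, Ppp2r3d, Csf2ra, Gna13, Tiam1, Cnksr3, Zbtb14, Klc1, A930018P22Rik and Sephs1. Tagln2 encodes transgelin 2, an actin-binding protein, and had 8 rows over 2535 bp (chr1:172499719-172502253). Its row signals ran from 1.98 to 5.21, with the strongest 653 bp downstream of the start. The libraries' own lists had 5 and 7 rows there, with strongest signals of 5.17 and 5.37 in replicates 1 and 2. Ppp2r3d, a regulatory subunit of protein phosphatase 2A, had the widest region, 3455 bp (chr9:124422530-124425984), with 7 rows. Its own strongest signals were 4.11 and 5.34, and its lists had 7 and 8 rows. Both regions were divided in both libraries, with signals under the lower quartile of broad regions, 7.47.

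Csf2ra encodes the alpha chain of the GM-CSF receptor, a growth factor receptor of myeloid cells. Its 7 rows covered 2389 bp (chr19:61225451-61227839), of which 1925 bp lay downstream of the start. Replicate 1 had 8 rows and replicate 2 had 2 there, with signals of 5.78 and 5.95. The number of rows thus differed where the signals were close. Gna13, a G protein alpha subunit, had 7 rows over 2378 bp and 4 rows in each library, with signals of 6.86 and 6.22. Tiam1, an exchange factor for the GTPase Rac, had 7 rows with 2 of near equal height, 8.85 at −149 bp and 8.71 at −495 bp. Zbtb14, a zinc finger transcription factor, had 7 rows and 6 in each library. Klc1, a kinesin light chain, had 7 rows in the conservative list and none in either library's own list. Sephs1, of the selenophosphate synthetase family, had 6 rows in the own list of replicate 1 and none in that of replicate 2. Spin1, a histone reader, Kctd12 and Tkt, the enzyme transketolase, stand only among the 10 widest, with 6, 6 and 5 rows over 2287, 2195 and 2119 bp.

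The 10 members with the strongest rows all measured 1000 to 1292 bp, below the median of 1317 bp. They were Gm5141, Zfp418, Trp53bp1, Trim30d, Zfp952, Ccdc77, Gm527, Ckap5, Nol11 and Trmt44. Gm5141 had a signal of 26.2 at −24 bp and 3 flanking rows of 3.57 to 5.34, with 23.2 in replicate 1 and 21.6 in replicate 2. Zfp418, a zinc finger gene, had 6 rows with 21 at −26 bp, and 18.2 and 19.03 in the libraries. Trp53bp1 encodes the DNA repair protein 53BP1 and had 20.9, with 18.04 and 21. It had 4 rows in replicate 1 and 1 in replicate 2. Trim30d had 20.3 at −68 bp and a second row of 8.997 at 221 bp, with 18.3 and 18.9. Its window held 44.5% G and C, below the 48.5% that 95% of broad regions exceed. The strongest summits of these 10 lay between −151 and 31 bp of the start. No region without a row in either library's own list is among them.

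The genes were counted against a background of 9.17%: of 12612 genes with a promoter region, 1156 had a broad one. The 12612 take in genes near head-to-head pairs. A gene whose only promoter region lies near such a pair could not count as broad or single-row. For a single-row one the figure is 35.7%, and 126 genes had both. Stem and progenitor regulators had a broad region at 2 of 19 genes with a promoter region (10.5%) and a single-row one at 12. Granulocyte-monocyte progenitor genes had 1 of 11 (9.09%). Erythroid and megakaryocyte genes had 0 of 12, genes of mature cells of other blood lineages 0 of 7 and genes of other tissues 0 of 1. The shares of the first 2 lists lie near the background. No set test was run, and nothing particular to a list is read from these counts.

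The stem and progenitor members were Tal1 and Etv6. Tal1, a regulator of blood stem cells, had 4 rows over 1393 bp (chr4:115056421-115057813), the strongest 6.08 at −422 bp. Its own signals were 5.64 and 6.23, with 4 rows in each library. Etv6, a repressor of the ETS family, had 5 rows over 1502 bp (chr6:134034832-134036333), which went down from 6.01 at −702 bp through 4.61, 3.95 and 3.18 to 2.12 at 520 bp. Its own signals were 5.88 and 5.75, with 5 and 4 rows. Cebpa had 4 rows over 1459 bp (chr7:35118036-35119494), of which 1257 bp lay upstream of the start. Its signals were 2.76, 2.63, 4.93 and 8.22 towards the start, with 7.39 and 3 rows in replicate 1 and 9.06 and 4 rows in replicate 2. The libraries' own lists had as many rows as the conservative list in these regions or 1 fewer.

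**Figure D5:**
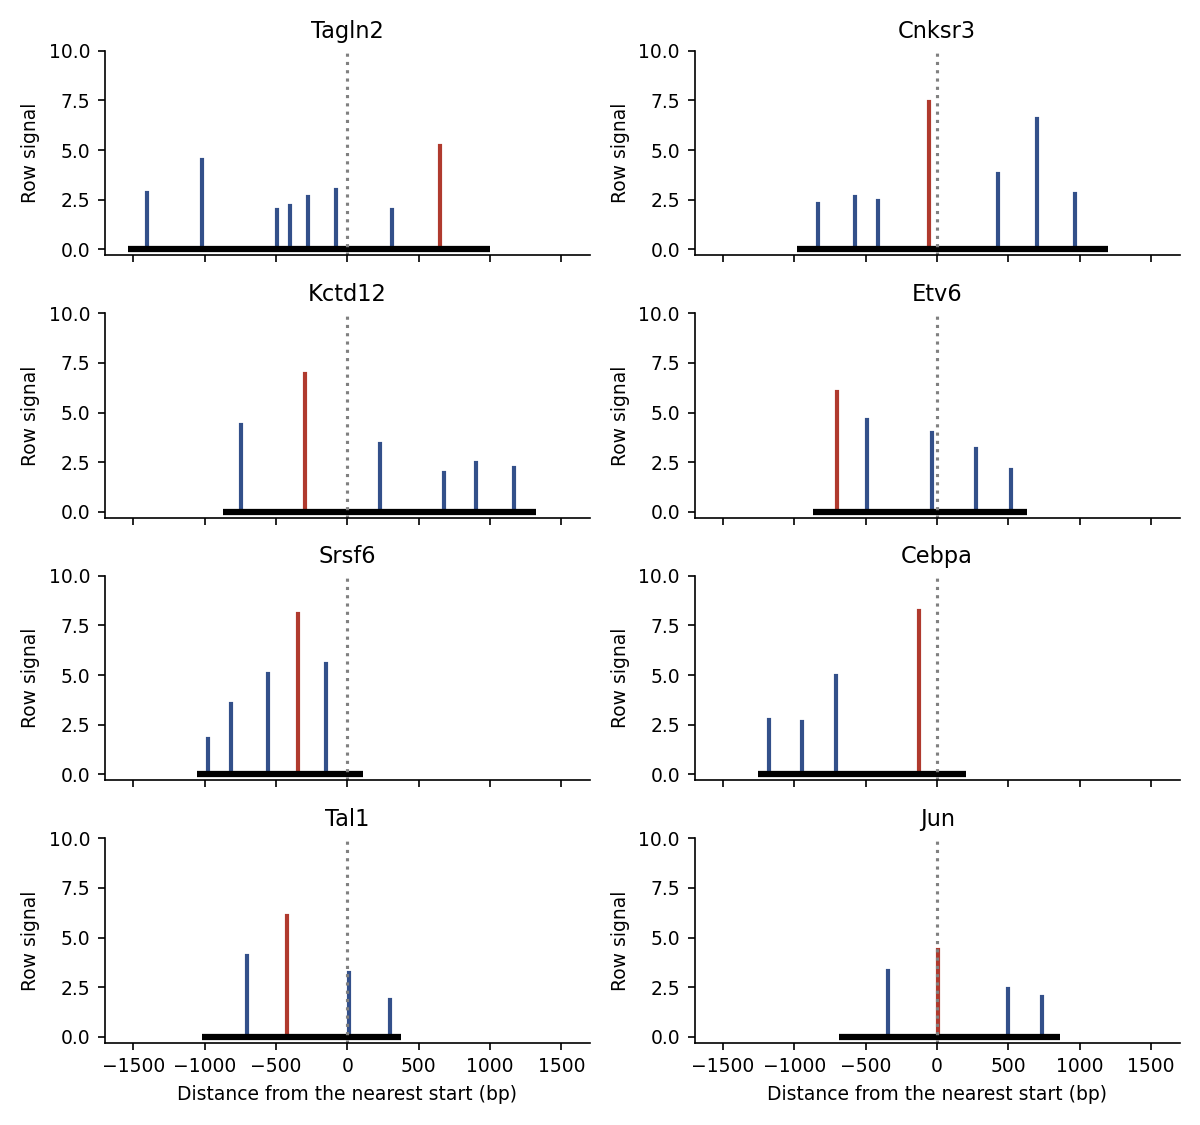
Row signals (vertical axis, scale not stated) at each summit by distance from the start nearest the strongest summit (horizontal axis, bp, dotted line at the start) in 8 broad regions; red marks the strongest summit, blue the others, and the black bar the extent of the region. In Etv6, Cebpa and Srsf6 the strongest summit lies upstream of the start, at −702, −125 and −346 bp, and in Tagln2 653 bp downstream.

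Splicing and RNA processing factors had a broad region at 6 of 24 genes (25%) and a single-row one at 7. They were Srsf1, Srsf5, Srsf6, Tra2a, Clk1 and Taf15. Srsf1, an SR protein, had 4 rows with 8.82 at −409 bp and 9.87 at −63 bp, and 4 rows in each library with 9.16 and 9.79. Srsf5 had 4 rows, with 8.86 at the strongest and 6.47 at 708 bp, and 8.14 and 9.36 in the libraries. Srsf6 had 5 rows with 8.10 at the strongest, and 7.72 and 8.08. Tra2a, a splicing activator, had 11.1 at −52 bp and 3 weaker rows downstream, with 10.6 and 10.7. Clk1, a kinase of SR proteins, had rows of 7.86 at −41 bp and 6.36 at 971 bp, with 8.23 and 6.72. Taf15, an RNA-binding protein of the FET family, had 17.3 at −113 bp, with 14.2 and 17.97. All 6 were found in both libraries with 2 to 4 rows. Symbols of the SR family alone gave 3 of 11, all 3 of which are in this list.

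Immediate early genes, which respond to stimulation within minutes to hours, had 4 of 22 (18.2%): Jun, Jund, Egr1 and Egr2. Jun and Jund, subunits of AP-1, had strongest rows of 4.36 and 4.73, each with 4 rows in both libraries. Egr1, a zinc finger factor, had 3.36 and no row in the own list of replicate 2. Egr2 had 6.64 at −431 bp, with 6.07 and 6.48 in the libraries. Feedback regulators of signalling had 3 of 22 (13.6%): Cish, an inhibitor of cytokine signalling, Spred1, an inhibitor of Ras signalling, and Smad7, an inhibitor of TGF-β signalling. Cish had 9.62 at −133 bp, with 9.27 and 9.35. Spred1 had all 5 summits upstream of the start, with 7.36 at −651 bp. Smad7 had 4.42 with 6 rows in the own list of replicate 1 and none in that of replicate 2.

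Histone modifiers and remodelers had 3 of 27 (11.1%). Ezh2, the H3K27 methyltransferase of Polycomb, had 5 rows with 12.8 at −77 bp, and 11.6 and 12.9 in the libraries. Setd1a, an H3K4 methyltransferase, had 10.5, with 9.02 and 11.3. Nsd1, an H3K36 methyltransferase, had 5.71, with 5.49 in the own list of replicate 1 and no row in that of replicate 2. Cell cycle genes had 3 of 16 (18.8%): the kinases Cdk4 and Cdk6 and the inhibitor Cdkn2c, with 8.97, 4.21 and 5.76. Cdk6 had 4 rows from −1410 to −624 bp and no row in either library's own list. Housekeeping genes had 2 of 10 (20%): Ppia, cyclophilin A, with near equal rows of 6.41, 6.12 and 5.69, and Ywhaz, a 14-3-3 protein, with 5.18.

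Gene families by symbol gave shares on both sides of the background. Those above it included the ETS family with 5 of 18 (Elf1, Elf2, Ets2, Etv1 and Etv6) and the SMAD genes with 3 of 8 (Smad5, Smad7 and Smad9). Ubiquitin-specific proteases had 6 of 41 (14.6%). Large families were nearer to it, with 34 of 321 zinc finger genes named Zfp (10.6%) and 27 of 227 solute carriers (11.9%). Transmembrane proteins named Tmem had 15 of 174 (8.62%). Cytosolic ribosomal proteins had 5 of 76 (6.58%) and CD surface antigens 2 of 50 (4%). Krüppel-like factors had 0 of 13, Hox genes 0 of 12 and Sox genes 0 of 8, and of these 7, 9 and 5 had a single-row region. By chromosome the share of promoter regions that were broad ran from 6.59% on chromosome 16 to 13.1% on chromosome 3.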

How the data were processed

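Per the file headers and labels the deposited lists are ATAC-seq peaks on mm10; which aligner, peak caller and shift of reads were used is not given in the sources used here. The authors deposited for each peak row a signal value, on a scale that is not stated, and it was used only to rank and describe rows within a list. Lists of each replicate were derived from its own alignments, and the conservative IDR-thresholded list from both, per the deposited notes. Overlapping rows were merged and set against GENCODE M21 and GRCm38.p6. Shares have Wilson or exact intervals, and differences of features and motifs Newcombe intervals widened by Bonferroni over 6 features or 24 motifs, at 95% confidence. Differences in summit position and reach have Newcombe intervals at 95% without widening. Motif differences standardised to deciles of G and C content have normal-approximation intervals, widened over the 24 motifs. The members, lists and motifs were chosen with earlier results of these data known. Named are the 10 members with the most rows, the 10 widest, the 10 strongest, members at listed genes, and motifs with the largest differences. ZBTB33, NRF1, EGR, NFY and GATA, and the windows at weaker summits, were added after their values were seen. Families by symbol were counted beside the lists. Alternatives were other lists, each library alone, row and window limits, head-to-head rules, merging, CpG limits and G and C deciles. The code was tested on made-up data. Python 3.11.15, NumPy 2.4.6, SciPy 1.17.1 and matplotlib 3.10.9 were used.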

Additional observations from a re-analysis of the deposited data

How the results depend on the processing

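The summary values and differences named here, and each motif, were recomputed under the alternatives that apply. Values of single genes, gene lists, families and weaker summits were not. The CpG-rich difference (26.5 points) and that of several starts (9.28) stayed above 0 with intervals leaving out 0 in every setting but the upper 50% of rows by signal. That setting left 2 broad regions, too few to read: the share was 0.0191% of promoter regions, the genes 2, the width ratio 1.61, the spacing 231 bp, the downstream share 12.5%, and motifs called 0 and 0. Its differences were −68.8 points for CpG-rich windows, 74.1 for several starts, −9.45 for a noncoding start, 17.7 for long genes, −13.3 for summits within 100 bp, −26.0 for downstream summits and −50.5 for a further reach downstream. Motif differences changed sign there for NRF1 (−1.35), SP (−9.17), KLF (−6.96), ETS (−4.27), CRE (−1.90), ZBTB33 (−1.14) and EGR (−0.490). With 3 or more rows there were 3506 regions (24.5%) at 3521 genes, ratios of 2.36 in width and 1.29 in signal, a spacing of 296 bp, 50.7% downstream and 6 less frequent motifs. With 5 or more rows there were 275 regions (1.92%) at 281 genes, ratios of 3.21 and 1.17, a spacing of 275 bp, and 1 more and 0 less frequent motifs. A promoter window of 500 bp gave ratios of 2.53 and 1.13 and 3 more and 0 less frequent motifs. One of 2500 bp gave a share of 6.75%, ratios of 3.07 and 1.34 and 5 less frequent motifs. Keeping head-to-head regions gave 9.27% and 51% downstream, and merging rows up to 100 bp apart 9.13%, a signal ratio of 1.18 and 288 bp. Motif windows of 100 bp on each side gave 6 less frequent motifs. Standardising to deciles of G and C content gave 1 more and 1 less frequent, by intervals of another kind (normal approximation). Chosen after seeing the data, the replicated list gave 6.18% and ratios of 3.51 and 1.79, and summits within 100 bp of the start 2 more and 0 less frequent motifs. Also recomputed after seeing the data, the noncoding start difference was 3.37 points at 5 or more rows. That of long genes was 2.41 with 3 or more rows, 3.58 with a window of 500 bp, 1.87 with head-to-head regions kept and 3.19 in the replicated list, and that of downstream summits −2.06 with a window of 500 bp, all with intervals including 0. The further reach downstream kept its sign and call in every setting but the upper 50%. The pseudoreplicated lists gave 63.5% and 47.5% of broad regions with 4 or more rows in replicates 1 and 2, against 54.3% and 35.3%.

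With the own list of either library alone, 489 to 750 regions were broad (4.45 to 6.09% of promoter regions, against 7.97% of all 14309), at 504 to 770 genes. The ratio of widths was 2.41 to 2.57 and that of signals 0.999 to 1.05, the lower one in replicate 2. More frequent motifs were 0 to 2 and less frequent ones 0 to 3, the spacing 279 to 282 bp and the downstream share 50.03 to 50.8%, against 52.8%. The difference was 2.17 to 6.16 points for long genes, 3.58 to 4.63 for summits within 100 bp and −5.80 to −0.884 for downstream summits, in each case weakest in replicate 2. Each of these lists is also shorter, and the effect of length cannot be told apart from that of the library. The cause of the other changes was not tested. No paired analysis was possible because the study has 1 group.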

Other observations

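Ppp2r3d and Csf2ra, which follow Tagln2 in number of rows, both lie near the end of their chromosome, at 169 kb from the end of chromosome 9 and 204 kb from the end of chromosome 19. Within 250 kb of an end lay 15 of the promoter regions away from head-to-head starts, and 5 of them were broad. Within 1000 kb the counts were 17 of 149 (11.4%), against 8.69% of all. These distances were chosen after the positions were seen, so no test is given. How repeated sequence near chromosome ends was mapped is not given in the sources used here.

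Of the broad regions with 4 rows 34.6% were at genes of at least 50 kb (Wilson 95% interval 31.6 to 37.9), and of those with 5 or more rows 45.1% were (39.3 to 51). At 1, 2 and 3 rows the shares were 32.5%, 32.0% and 33.8%. The step at 5 rows was seen in the data and was not tested.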
